A study of Mus musculus with 2 samples.

Results

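Dense clusters of distal accessible regions were examined in mouse thymus. A region was a stretch with a strict DNase I-seq peak in both replicates, and it was distal when it lay over 1 kb from every annotated transcription start site (TSS). Distal regions separated by 0.0125 Mb or less were chained, and chains of 8 or more regions were kept. This gave 122 chains holding 1281 of 29398 distal regions (4.36%), out of 51709 shared regions in all. The chains covered 0.138% of the genome and carried 6.67% of the summed distal score.

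The tissue was whole thymus of male B6CASTF1/J mice aged 2 months, the F1 cross of C57BL/6J and CAST/EiJ, with 2 replicates in 1 group and no treatment. The labels number a separate animal for each replicate but give both the same donor identifier. Whole thymus is a mixture, so that fewer cells of a type and less signal per cell cannot be told apart. The promoters of 8 of 8 thymocyte markers were accessible in both replicates, among them Bcl11b at 10.6 and 6.55 and Cd8a at 10.2 and 6.92. Of the B cell markers Pax5 was accessible (4.87 and 4.08) and Cd79a and Ms4a1 were not, and of 4 myeloid markers none was accessible in both. Replicate 1 had 63832 strict peaks, or 62230 after overlapping entries were joined, and 291716 footprints. Replicate 2 had 67929 strict peaks, or 66839 after joining, and 295617 footprints. The depth of sequencing is not stated in the files.

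DNase I cuts DNA where chromatin is open, and a footprint is a short protected stretch inside an open region, as a bound protein leaves. Enhancers of genes that set cell identity are often found in dense groups spread over many kilobases, known as super-enhancers or stretch enhancers. In thymocytes such groups are known at the genes of T lineage transcription factors and of the co-receptors CD4 and CD8. Acetylation marks and contacts between regions were not measured here, so the clusters are called chains.

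The highest region of 6 chains is printed, so the sequences are of strong regions and not of typical ones. Their mean scores were 7.52 to 17.9, against a median of 2.10 over all chain regions. The 6 chains belong to the 12 with the highest summed score, and each printed region had at least 90% of its 31-base words unique in the genome. The sequences are the plus strand of mm10 from the RefSeq assembly GRCm38.p6, not of CAST/EiJ, and capitals mark bases that lay inside a footprint of both replicates. The Tcf7 sequence is chr11:52314091-52314390, the Ccnd3 sequence chr17:47511201-47511440 and the Ripor1 sequence chr8:105622461-105622680. The E2f2/Id3 sequence is chr4:136147801-136148020, the Cd8a sequence chr6:71341281-71341540 and the Dad1 sequence chr14:54227421-54227720. For Tcf7 and Dad1, whose regions were 400 and 340 bp wide, the central 300 bases are given.
Tcf7: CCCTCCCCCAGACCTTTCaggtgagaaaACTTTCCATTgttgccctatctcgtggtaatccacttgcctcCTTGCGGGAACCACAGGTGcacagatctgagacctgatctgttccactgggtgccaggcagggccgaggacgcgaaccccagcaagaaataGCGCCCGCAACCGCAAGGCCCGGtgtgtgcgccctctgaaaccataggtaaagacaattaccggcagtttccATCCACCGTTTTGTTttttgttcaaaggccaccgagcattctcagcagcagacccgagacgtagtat
Ccnd3: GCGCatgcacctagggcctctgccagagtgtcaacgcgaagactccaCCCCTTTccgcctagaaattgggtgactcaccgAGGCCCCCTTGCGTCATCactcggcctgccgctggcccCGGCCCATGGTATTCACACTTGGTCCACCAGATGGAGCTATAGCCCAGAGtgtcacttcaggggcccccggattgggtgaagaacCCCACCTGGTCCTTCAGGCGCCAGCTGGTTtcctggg
Ripor1: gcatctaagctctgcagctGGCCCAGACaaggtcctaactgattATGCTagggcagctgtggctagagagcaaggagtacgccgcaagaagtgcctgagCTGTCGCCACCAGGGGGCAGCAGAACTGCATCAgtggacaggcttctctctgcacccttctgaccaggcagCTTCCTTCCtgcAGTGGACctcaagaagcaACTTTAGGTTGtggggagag
E2f2/Id3: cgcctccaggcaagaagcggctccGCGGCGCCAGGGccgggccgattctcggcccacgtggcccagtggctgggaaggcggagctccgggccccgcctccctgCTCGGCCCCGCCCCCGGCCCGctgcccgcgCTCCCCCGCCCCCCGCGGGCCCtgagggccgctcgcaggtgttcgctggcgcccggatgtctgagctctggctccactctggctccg
Cd8a: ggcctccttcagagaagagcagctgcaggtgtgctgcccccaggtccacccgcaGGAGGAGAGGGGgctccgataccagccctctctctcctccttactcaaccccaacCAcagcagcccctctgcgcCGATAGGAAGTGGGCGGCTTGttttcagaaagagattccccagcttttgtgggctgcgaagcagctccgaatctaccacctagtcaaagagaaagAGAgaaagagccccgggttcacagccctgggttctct
Dad1: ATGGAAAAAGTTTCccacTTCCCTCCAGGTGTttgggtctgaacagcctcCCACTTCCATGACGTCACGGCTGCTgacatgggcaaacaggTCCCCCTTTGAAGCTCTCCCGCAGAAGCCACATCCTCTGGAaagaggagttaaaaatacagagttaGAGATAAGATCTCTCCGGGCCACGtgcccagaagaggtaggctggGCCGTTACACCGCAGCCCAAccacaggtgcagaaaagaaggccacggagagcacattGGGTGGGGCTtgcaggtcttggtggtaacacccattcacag

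Footprints of both replicates covered 49.3% of the bases of the Dad1 sequence, 45.4% of Ccnd3, 33.6% of Ripor1, 28.3% of Tcf7, 25% of E2f2/Id3 and 14.6% of Cd8a. The Tcf7 sequence held a RUNX consensus (TGTGGTT on the minus strand, bases 79 to 85) that overlapped an E-box (CAGGTG, bases 84 to 89), both wholly inside a footprint. The Dad1 sequence held 4 matches wholly inside footprints. They were an E-box at bases 26 to 31, NFAT (GGAAAA) at bases 3 to 8, a GATA match at bases 159 to 165 and a MYB match on the minus strand at bases 203 to 208. In the Ripor1 sequence the match to the consensus of CTCF, the insulator factor, lay at bases 106 to 117, wholly inside a footprint. The E2f2/Id3 sequence, with a GC content of 79.1%, held 2 SP/KLF matches (GGGCGG) inside footprints. The Dad1 sequence held 7 matches in all, and of 4 in the Cd8a sequence 1 lay wholly in a footprint. A match is a run of letters, and binding was not measured.

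Chains held 8 to 40 regions, with a median of 9. Their span ran from 5.66 to 97.2 kb with a median of 28.7 kb. Regions filled a median of 11.5% of the span (2.82 to 42.3%), so most of a typical chain was sequence between regions. The median chain had 3.54 regions per 10 kb. The summed score of a chain, the sum over its regions of the mean of the replicates' scores, ranged from 9.15 to 286 with a median of 27.4. These values chose and ranked the chains and are given as a description. Runs of 7 regions, just outside the limit, had sums from 7.88 to 35.1 with a median of 18.7, so their range overlapped that of the chains. The 2 chains of 8 regions with the highest sums were at Dad1 (summed score 49.4) and Cd4 (41.0). The 2 runs of 7 regions with the highest sums were at Ctc1 (35.1) and at Gm10277/Myo18a (33.3). There were 38 chains of 8 regions and 68 runs of 7.

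**Figure D1:**
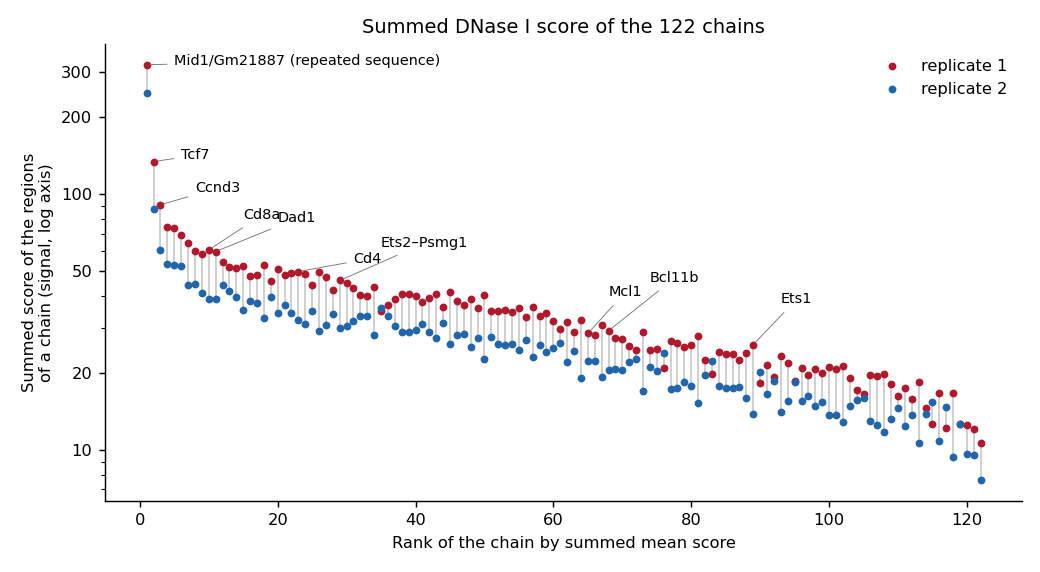
Summed score of each of the 122 chains (vertical axis, log scale, signal units) against its rank, with replicate 1 in red and replicate 2 in blue joined by a grey line. The chain at Mid1/Gm21887 stands first, Tcf7 second, and 115 of 122 chains have the higher sum in replicate 1.

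The chain of highest rank lies on chromosome X at 169980761-170022340, over the annotated genes Mid1, a ubiquitin ligase gene that spans the pseudoautosomal boundary of the laboratory mouse, and Gm21887. Its 23 regions summed to 321 in replicate 1 and 250 in replicate 2. A pair of touching regions in it, at 169997961-169998240 and 169998241-169998420, had mean scores of 75.9 and 70.2. In both of these regions 0% of the 31-base words were unique in the reference, and the median over the chain was 0%. Reads from several copies can add up there, and the part this plays in the score was not tested. Without that chain the highest sum was 111 and the median 26.9 over 121 chains. The only other chain with most of its regions in repeated sequence was on chromosome Y, between Gm20837 and Gm21860, with rank 83.

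The chain at Tcf7 ranked second and was the longest, at chr11:52254021-52351220. Tcf7 encodes TCF-1, the factor that starts and holds the T cell program. Its 40 regions summed to 134 in replicate 1 and 87.7 in replicate 2 (111 ± 32.9, SD, n = 2). The 40 scores ran from 0.674 to 14.3 with a median of 2.23 in replicate 1, and from 0.419 to 9.10 with a median of 1.41 in replicate 2. Of these regions 24 lay upstream of the gene's 5′ end and carried 80.7% of the summed score, reaching to 68.2 kb. The highest region, printed above, stood 31.2 kb upstream, with 14.3 and 9.10 and 8 footprints in each replicate. The 16 regions within the gene did not exceed 3.18 in replicate 1, and 14 of the 24 upstream regions did. A region at 52343261-52343440 and another at 52297461-52297660 each held a CTCF match.

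Genes of the co-receptors and of the T cell receptor locus stood beside other high chains. The chain at chr6:71325801-71377044 ran from within Cd8b1 to within Cd8a, the genes of the CD8 chains, with 18 regions and sums of 60.6 and 38.8 in replicates 1 and 2. Its highest region, between the genes, scored 9.16 and 5.88, and the next, ahead of Cd8a, 9.03 and 5.64. The chain averaged 4.97 footprints per region, above the median chain (3.68). It had 5.83 in replicate 1 and 4.11 in replicate 2, against chain medians of 3.73 and 3.73. These counts were not adjusted for the width of the regions. The Cd4 chain, at chr6:124879441-124904400, had 8 regions and sums of 49.9 and 32.1. Its highest region lay 15.5 kb upstream of Cd4, held a CTCF match and scored 19.1 and 14.5, which was 40.9% of the summed score. The chain also overlapped Lag3, which had a TSS 5651 bp beyond the chain's end.

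The chain named for Dad1, a subunit gene of the oligosaccharyltransferase, begins 3.96 kb downstream of the annotated TSS of Trac, the constant gene of the T cell receptor alpha chain, at chr14:54224481-54239300. The enhancer of the Tcra locus is known to lie between the constant gene and Dad1. The 8 scores in replicate 1 were 2.78, 3.40, 19.9, 6.80, 2.17, 3.13, 8.32 and 13.2 in order along the plus strand. In replicate 2 they were 2.01, 1.82, 12.48, 5.69, 1.5, 1.52, 4.60 and 9.47. The third region, printed above, was the highest in both replicates. The eighth, in an intron of Dad1, was the next and held the chain's only CTCF match.

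**Figure D2:**
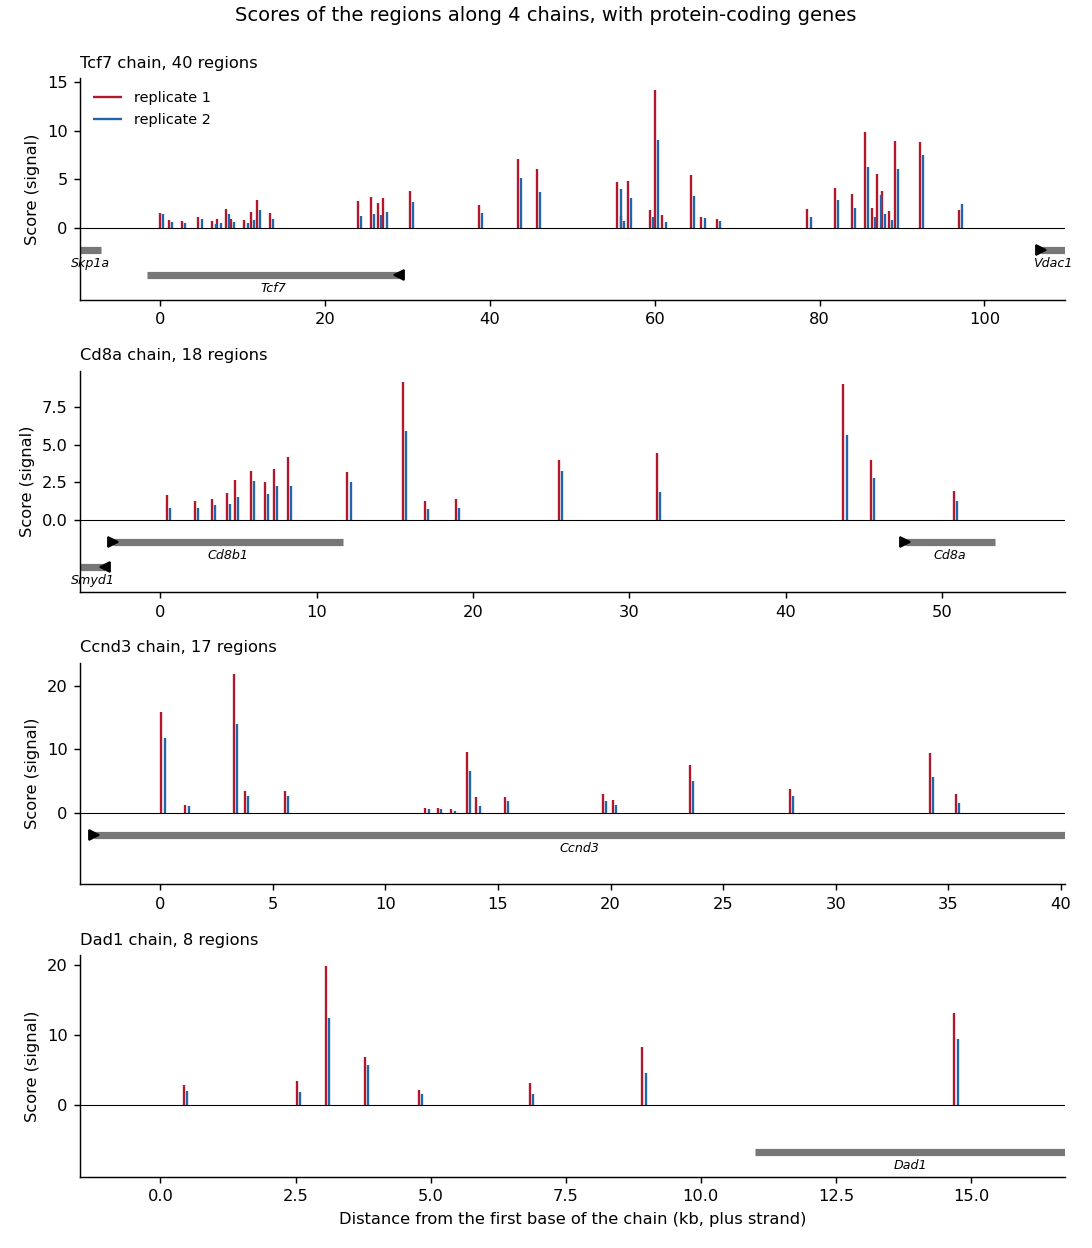
Score of each region (vertical axis, signal units; replicate 1 red, replicate 2 blue) along the chains at Tcf7, Cd8a, Ccnd3 and Dad1, against distance from the chain's first base in kb. Grey bars are protein-coding genes with an arrowhead at the 5′ end; 1 or 2 regions stand out in each chain, and the highest regions at Tcf7 stand upstream of the gene.

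The third chain lay wholly in introns of Ccnd3, which encodes cyclin D3, the D-type cyclin of proliferating thymocytes. Its 17 regions summed to 91.0 and 60.4, and the highest scored 21.8 and 13.9. The next chains lay at Arl5c/Plxdc1 (74.3 and 53.5) and between Tex44 and Ptma (73.5 and 53.1), the second of these 17.1 kb from Ptma, which encodes prothymosin alpha. The chain at Btg2, an antiproliferative gene, summed to 69.4 and 52.6. The chain at Ripor1 (64.8 and 44.0) ended 1.58 kb from a TSS of Ctcf, the gene of the insulator factor itself. The chain over E2f2 and Id3 summed to 60.1 and 44.5. Id3, an inhibitor of E proteins, had a further chain 32.6 kb upstream with rank 30. That chain lay nearer to a TSS of Rpl11, at 16613 bp. The chain between Chd2 and Fam174b summed to 58.5 and 40.9. Replicate 1 was higher than replicate 2 in 12 of the 12 highest chains.

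Other T lineage genes had chains of lower rank. Bcl11b, the gene of a factor required for T cell commitment, held a chain at its 5′ end with rank 68, 9 regions and sums of 29.2 and 20.5. Between Vrk1 and 3110018I06Rik, 846 kb downstream of the 5′ end of Bcl11b, a chain of 13 regions at chr12:107118441-107157520 summed to 49.8 and 29.1 and ranked 26. In that interval an enhancer of Bcl11b is known from mouse T cells. The Ets1 chain (rank 89) lay within the gene, with 13 regions and sums of 25.8 and 13.8. The chain between Ets2 and Psmg1 had the second largest number of regions, 29, but a median region score of 0.730 and rank 29. The chain at Zfp36l2, an RNA-binding regulator of thymocyte proliferation, had 21 regions and a median region score of 0.586. Chains at Bcl6, Mcl1 and Bcl2l1, genes of a repressor and of anti-apoptotic proteins, ranked 44, 65 and 81. A chain of rank 27 lay at Sox4, a chain of rank 67 lay 8.66 kb upstream of Thy1, and one of rank 37 lay 56.6 kb upstream of Rasgrp1. After Tcf7, the longest spans were 77.1 kb, over the genes from 2300002M23Rik to Cdsn (rank 76), and 74.8 kb at Cdc6/Rara (rank 16).

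Of 21 genes of T lineage transcription factors 4 had a TSS within 50 kb of a chain (Tcf7, Bcl11b, Ets1 and Id3), against 317 of 21938 protein-coding genes (1.44%). Inside a chain lay the TSS of 3 of the 21, against 84 of all (0.383%). The other 17 had none within that distance, although 21 of 21 had an accessible promoter, against 12935 of all genes (59.0%). Among these 17, Runx3 was 916 kb from the nearest chain and Myb 1951 kb. Of 15 co-receptor and double-positive stage genes 3 were near (Cd4, Cd8a and Cd8b1), and of 12 survival and cell cycle genes 4 (Ccnd3, Bcl6, Mcl1 and Bcl2l1). Of 25 T cell receptor and signalling genes 1 was near, Csk, the kinase that restrains Lck. The lists of early double-negative and Notch genes (15), mature single-positive and egress genes (15) and regulatory T cell genes (12) had 0 each, with accessible promoters for 14, 12 and 10.

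Over the 7 T cell lists 12 of 113 genes (10.6%) were near a chain, and 106 of the 113 had an accessible promoter. Over 8 lists of other cell types and housekeeping genes 3 of 120 were (2.5%), and 54 of the 120 had an accessible promoter. Among the 3 were Actb, a housekeeping gene, and Mpo, whose promoter had no peak and which lay 22.3 kb from a chain at Tspoap1. The housekeeping list alone, with 15 of 15 promoters accessible, had 2 of 15 near (13.3%). Of all genes with an accessible promoter 255 of 12935 were near (1.97%). Chains stood near genes of some T cell lists and also near broadly used genes. Lists of 12 or 15 genes are too short for 0 near a chain to be told apart from the 1.44% of all genes. Of the 317 genes near a chain 80.4% had a promoter accessible in both replicates, and of the 84 with a TSS inside a chain 88.1%. A protein-coding TSS lay inside 61 chains, and 35 chains overlapped no protein-coding gene.

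**Figure D3:**
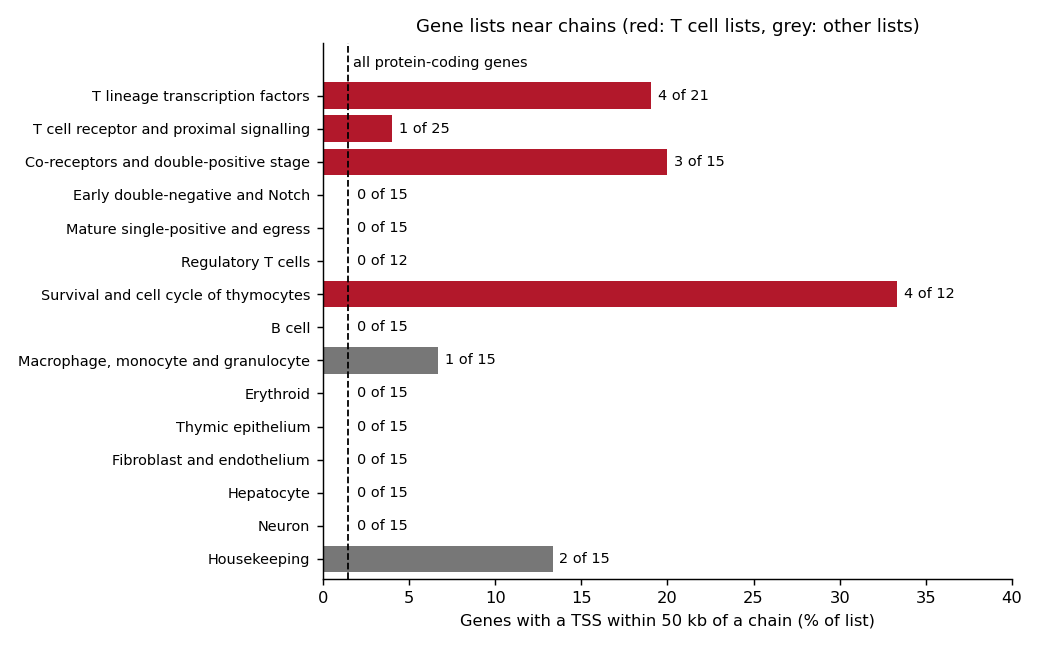
Share of the genes of each list with a TSS within 50 kb of a chain (horizontal axis, percent), T cell lists in red and other lists in grey, with counts. The dashed line is the share among all protein-coding genes, 1.44%; 4 T cell lists and 2 other lists lie above it.

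The scores of the replicates differed more inside chains than outside. The median ratio of the replicate 2 to the replicate 1 score was 0.726 over the 1281 chain regions and 0.970 over the 28117 distal regions outside chains. In replicate 1 the median score was 2.41 inside and 1.43 outside, and in replicate 2 it was 1.76 inside and 1.40 outside. Replicate 1 was the higher in 84.8% of chain regions and in 53.5% of outside regions. In 45 chains it was the higher in all of their regions. With 1 pair of replicates the difference has no test.

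The ratio fell step by step with the size of the run. It was 1.07 for single regions, 0.965 in runs of 2, 0.896 in runs of 3, 0.863 in runs of 4, 0.827 in runs of 5, 0.810 in runs of 6 and 0.791 in runs of 7. In chains, the middle 50% of regions had ratios between 0.615 and 0.883, against 0.848 and 1.33 for single regions. Chain regions were wider, with a median of 280 bp against 200 bp outside. Among regions 150 to 250 bp wide the ratio was 0.851 in chains and 1.14 for single regions. In the highest quartile of scores it was 0.724 in chains and 0.919 outside, and in the lowest 0.782 and 1.00. Shared regions within 1 kb of a TSS had a ratio of 0.779.

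**Figure D4:**
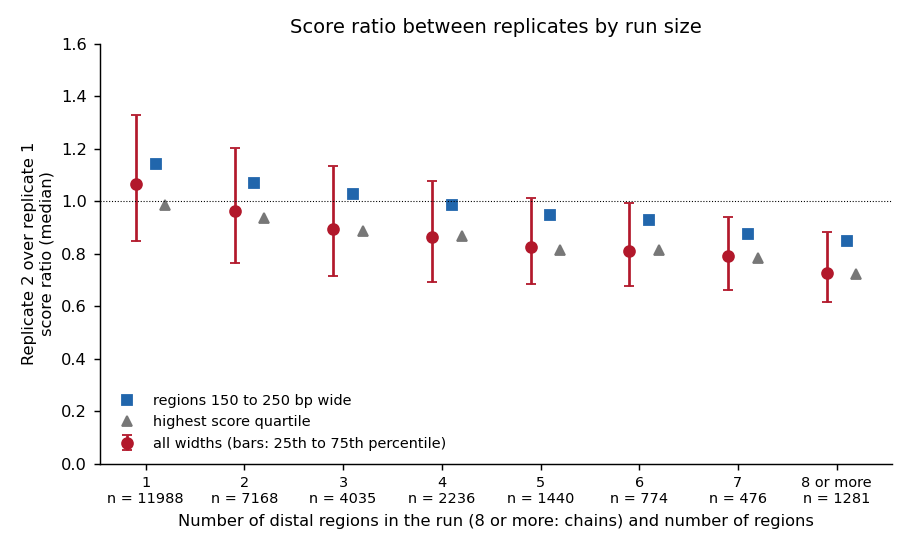
Median ratio of replicate 2 to replicate 1 score (vertical axis) for distal regions by the number of regions in their run (horizontal axis, with the number of regions). Circles are all regions with the 25th to 75th percentile, squares regions 150 to 250 bp wide, triangles the highest score quartile; the circles fall from 1.07 for single regions to 0.726 in chains.

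The ratio varied between single chains. The ratio of the sums ran from 0.534 at Ets1, 0.548 at Bcl2l1 and 0.561 at Cerk to 1.22 at Osbpl3 and 1.21 at Sfi1, with a median of 0.739. Of the 7 chains with the higher sum in replicate 2, 1 lay beside Igha and Ighe, constant genes of the immunoglobulin heavy chain (35.0 in replicate 1 and 35.9 in replicate 2). At Ets1 13 of 13 regions were higher in replicate 1, and at Sfi1 8 of 9 were higher in replicate 2. At Osbpl3 only 3 of 8 regions were higher in replicate 2, and the median region scores were 0.919 in replicate 1 and 0.909 in replicate 2. Across the 122 chains the order of the sums was nonetheless alike in the replicates (Pearson 0.949 and Spearman 0.937 of log2 sums, a description over chains that share the libraries).

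Regions with a CTCF match were fewer in chains. A match to the CTCF consensus, on either strand, lay in the central 200 bp of 6.17% of chain regions (95% Wilson interval 4.98 to 7.62%) and of 13.8% of outside regions (13.4 to 14.2%). Single regions had it in 16.8%. In the highest quartile of scores the shares were 10.3% in chains and 18.6% outside. Of the first and last regions of the chains 10.7% held a match anywhere in the region, against 5.50% of the inner ones. No region held one in 67 chains, and the most in 1 chain was 4. CTCF matches moved with the ratio between replicates. It was 1.01 in the 83 chain regions with a match and 1.20 outside. Without a match it was 0.713 in 1198 chain regions and 0.927 outside, so the gap was present in regions with no match.

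The other consensus sequences differed by fewer percentage points. E-boxes (CAGCTG or CAGGTG), bound by the E proteins of thymocytes, were in the central 200 bp of 44.7% of chain regions (42 to 47.5%) and 41.0% of outside regions (40.4 to 41.6%). SP/KLF sites were in 14.7% (12.8 to 16.7%) and 10.8% (10.4 to 11.1%). ETS (ACAGGAAG) was in 7.57% and 7.56%, and RUNX in 7.18% (5.89 to 8.73%) and 8.76% (8.43 to 9.09%). TCF/LEF (CTTTGAT) was in 2.89% and 3.37%. The letters AGATAAG, bound by factors of the GATA family, were in 2.42% and 2.14%. MYB (AACGGN) was in 11.1% and 9.91%. NFAT, whose consensus shares 4 bases with that of ETS, was in 12.2% and 13.4%. AP-1 (TGANTCA) was in 5.78% and 6.29%. NFY (CCAAT) was in 17.1% and 18.7%. Of the control sequences of other lineages, that of HNF1 (GTTAAT) was in 3.12% and 3.37%. That of MEF2 (CTAAAAATA) was in 0.625% (8 regions, 0.317 to 1.23%) and 0.270% (76 regions, 0.216 to 0.338%), a difference that rests on few regions. The intervals cover counting error only, and regions of 1 chain are not independent. Median GC content was 53.6% in chains and 52% outside.

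Footprints per region were slightly more numerous in chains, and less dense. The mean was 3.80 in replicate 1 and 3.68 in replicate 2 inside chains, against 3.11 and 3.26 outside. The median was 3 in both places in each replicate. Per 100 bp, chain regions had 1.15 footprints in replicate 1 and 1.12 in replicate 2, against 1.29 and 1.35 outside. No footprint at all was found in 7.73% and 7.81% of chain regions, against 3.66% and 2.77% outside. In the lowest quartile of scores 28.6% and 32.3% of chain regions had none, against 9.42% and 6.47% outside. In the highest quartile the means were 4.82 and 4.62 in chains, against 4.10 and 4.15 outside. Among chains, Kdm6b had the most per region (6.00), followed by a chain at Bcor with rank 113 (5.62) and Padi2/Sdhb (5.56). The fewest were at Scarb2 (2.06), Pitpnc1 (2.31) and Mxd4 (2.42).

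Pooled over the chains, weaker signal covered a larger share of the space between regions than of the flanks. After strict peaks and 1 kb around each TSS were left out, stretches under the false discovery rate of 0.05 covered 15.8% of the gaps in replicate 1 and 10.9% in replicate 2. In flanks 50 to 100 kb from the chains they covered 1.87% and 1.28%. Peaks of the looser lists covered 3.88% and 3.04% of the gaps, against 0.590% and 0.476% of the flanks. The chains were chosen from the same signal, so this is a description. In each replicate, 122 of 122 chains were above the pooled flanks, from 2.94 to 93.7% in replicate 1 and from 1.87 to 59.1% in replicate 2. Replicate 1 was the higher in gaps and in flanks.

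**Figure D5:**
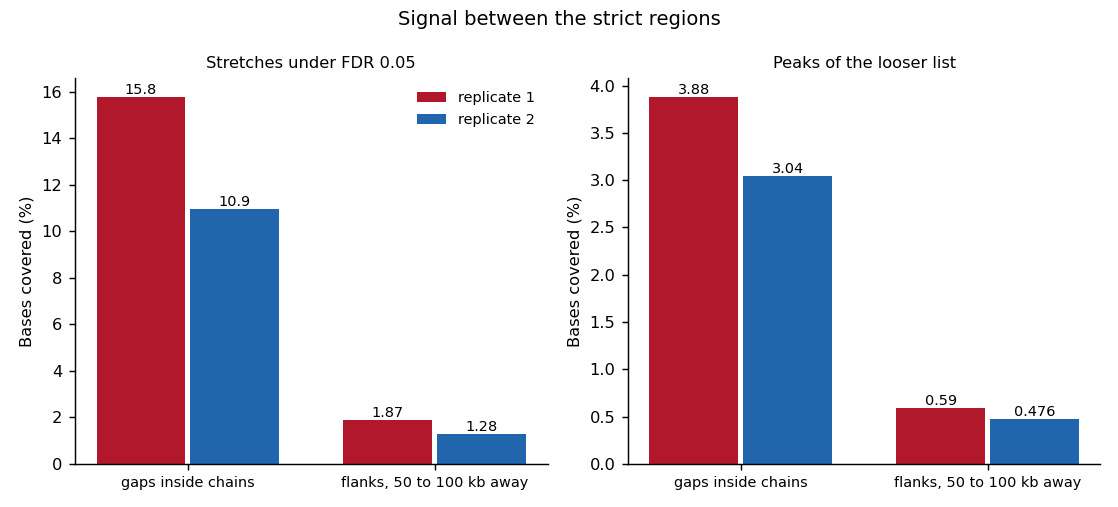
Percent of bases covered (vertical axes) by stretches under a false discovery rate of 0.05 (left) and by peaks of the looser list (right), in gaps inside chains and in flanks 50 to 100 kb away, with replicate 1 in red and replicate 2 in blue. Strict peaks and 1 kb around each TSS are left out; gaps stand above flanks in both replicates, 15.8 and 10.9% against 1.87 and 1.28% on the left.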

How the data were processed

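DNase I-seq files of 2 thymus samples in 1 group were used. The deposited peak lists, on mm10 per the labels, give a signal score per peak; its scaling, the aligner and the peak caller are unstated in the labels. The strict list of each sample is the shorter. The deposited tracks of false discovery rates (p-values of the q-value kind) list stretches under 0.05, and the deposited footprints hold a constant and were used as positions.

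Overlapping entries of a list were joined with the highest score. Peaks that overlapped by at least 1 bp between samples were merged to regions, whose score is the mean of the replicates' highest scores. A footprint counted where its centre fell. TSSs came from GENCODE M21 on 21 chromosomes, sequence from GRCm38.p6, and score quartiles from the 29398 distal regions. No test was made: the group has no contrast, and regions and chains are not replicates. Named chains followed a rule: the 12 highest, the 5 with most regions, the 3 longest, the 3 highest and 3 lowest in footprints, 2 on each side of the limit of 8, and those near a T cell list gene; chains with other features (Sox4, Thy1, Rasgrp1, the constant genes, Cerk, Osbpl3, Sfi1, Bcl11b's distant chain) were named after their values were seen. A few genes and 1 chain that the rule names are not reported here. The members and lists were chosen with earlier results of these data known. The joining of entries, merging of shared peaks and chaining were run on simulated peaks with known chains. The other steps were not tested in this way. Tools were pysam 0.24.0, numba 0.67.0, matplotlib 3.10.9, pandas 2.3.3, numpy 2.4.6 and scipy 1.17.1 under Python 3.11.15.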

Additional observations from a re-analysis of the deposited data

How the results depend on the processing

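The number of chains rests on the limits that define them. It was 122 as reported, 607 with 5 or more regions and 27 with 12 or more, 46 with a gap of 5 kb and 366 with 25 kb, 59 with 50% reciprocal overlap of peaks, 374 with the looser lists and 72 at 2.5 kb from a TSS. From the peaks of 1 replicate alone there were 252 to 363 chains. The share of distal regions in chains was 4.36% as reported, 9.17% with the looser lists, 13.6% with the gap of 25 kb, 13.5% with 5 or more regions and 7.77 to 12.4% from 1 replicate alone. The ratio of median footprints per region, chains over outside, used each region's count averaged over the replicates. It was 1.17 with the main settings (3.5 over 3), 1.20 with the looser lists and 1.00 with the 50000 highest peaks of each replicate. It was also 1.00 with either replicate alone, where each region's count is a whole number. The share of T lineage transcription factor genes near a chain was 19% as reported. It was 14.3% with 50% overlap, the 50000 highest peaks, 2.5 kb from a TSS, the gap of 5 kb or 12 or more regions, 23.8% at 500 bp from a TSS, 33.3% with the gap of 25 kb, 38.1% with the looser lists or 5 or more regions, and 33.3 to 38.1% from 1 replicate alone. Of the 12 highest chains 3 remained among the 12 when chains were ranked by the median region score, 10 by replicate 2 alone, 12 by replicate 1 alone and 9 without each chain's highest region. Alternatives chosen after seeing the data joined regions with gaps of 150 bp or less, which left 93 chains (the chains at Cd4, Sox4, Mcl1 and Bcl2l1 then had 7, 4, 7 and 7 regions). The chains with the most footprints per region, at Kdm6b, Bcor (rank 113) and Padi2/Sdhb, then had 7, 6 and 6. Scarb2 and Pitpnc1, among those with the fewest, had 7 each. With the joined regions the score ratio between replicates was 0.728 inside chains and 0.975 outside. Over the settings that kept both replicates it ran from 0.696 to 0.792 inside and from 0.960 to 0.990 outside. No paired analysis was possible because the study has 1 group. The depth of sequencing is not stated, so what it limits is unknown.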
